A study of Mus musculus with 6 samples.

Results

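The genes described here are 32 lysosome and autophagy genes, measured in heart ventricles of mice with and without an induced deletion of Tead1. They form a chosen list and were found on the arrays through the RefSeq accession of each probe, among 20145 genes named in that way. The list holds 15 lysosomal hydrolases, 5 genes for lysosomal membrane and lipid transfer proteins, 11 genes of the autophagy machinery and the transcription factor gene Tfeb. All 32 were well above background on all 6 arrays, so none entered through the filter on dim probes. They were read by 39 probes, and 25 of the genes by 1 probe each.

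Lysosomes are acidic organelles in which hydrolases break down proteins, sugars and lipids. Autophagy delivers a cell's own cytoplasm and organelles to them in a double-membraned vesicle, the autophagosome, which forms around cargo and then fuses with the lysosome. In the heart, autophagy clears damaged mitochondria and protein aggregates from cardiomyocytes, which seldom divide, while macrophages and fibroblasts, which degrade engulfed material and matrix, are rich in lysosomal proteases.

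The 3 Tead1 icKO mice carried Tead1F/F alleles together with Myh6-CreER, a tamoxifen-activated Cre recombinase driven by a cardiomyocyte promoter. The 3 control mice were Tead1 flox, with no Cre named in the labels. Both groups had received tamoxifen, and all were males aged 11 to 12 weeks on a C57bl/6j background. Loss of Tead1 and presence of Cre can therefore not be told apart, and because whole ventricle was taken, fewer cells of a type and less RNA per cell cannot be told apart either. The labels call the 3 samples of a group biological replicates, with 1 array each.

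The arrays gave 49.1% to 51.9% of spots well above background and 0 saturated spots, and 3 arrays per group limit the precision. All lay on 1 slide, with controls in slide columns 1, 1 and 2 and icKO in columns 2, 3 and 3, so position on the slide and group can hardly be told apart. Levels are log2 signals relative to the array's own 75th percentile, and differences are icKO minus control on that scale. Of 22278 features tested, 44.8% passed an adjusted p of 0.05 (limma, Benjamini-Hochberg), 16.0% higher and 28.7% lower in icKO, and the median feature differed by -0.14. Of all calls, 35.8% were higher; median scaling gave 54.6% and scaling to spike-in probes 81.0%, and these scalings added 0.16 and 0.44 to the members' differences. The brightest Tead1 probe, which stood for the gene, differed by -0.40 ± 0.11 (SE; adjusted p = 0.030), and dimmer Tead1 probes by -0.43 and -0.19. It is not known here whether any of them lies in the deleted part. The Tead1 call was lost with median scaling (-0.24, limma adjusted p = 0.19), and its sign turned with spike-in scaling (0.043). Markers of other cells moved too: 15 of 17 macrophage and 10 of 12 fibroblast markers were higher, and 10 of 12 cardiomyocyte markers lower, or 3 with quantile or spike-in scaling.

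Most of the 32 genes were more abundant in icKO ventricles. Of them, 21 rose, 3 fell and 8 did not pass, beside the background of 16.0% of features higher and 28.7% lower. The median member differed by 0.41, while the median over all features was -0.14. The groups did not overlap for 24 members with icKO higher and for 4 with icKO lower, against 21.6% and 37.7% of all features (59.3% in either direction). Without icKO replicate 3 the number that rose was 13, beside 12.5% of all features higher in that fit.

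**Figure D1:**
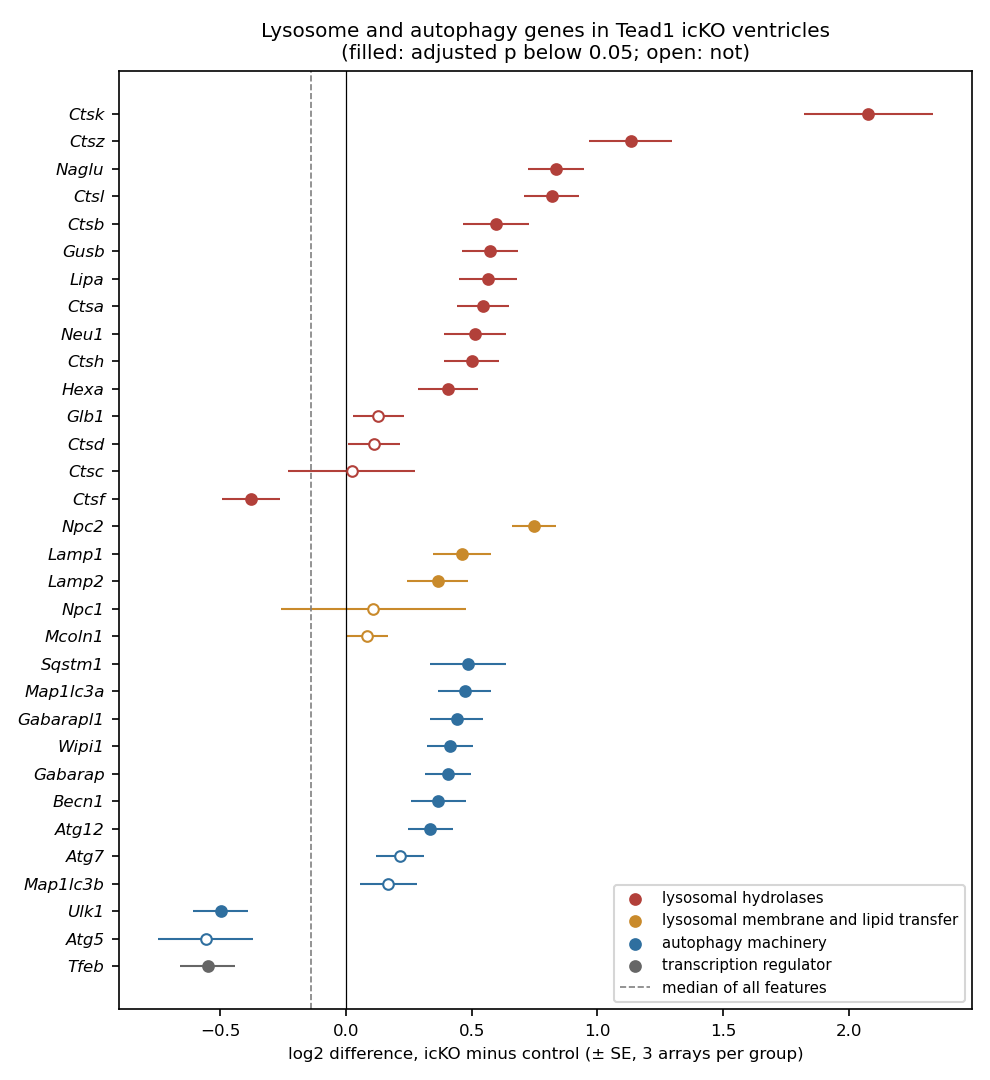
Log2 difference of each of the 32 genes (icKO minus control, ± SE of the fit, 3 arrays per group), grouped by class, with filled points for an adjusted p below 0.05 and a dashed line at the median of all features. The hydrolases reach from -0.38 for Ctsf to 2.08 for Ctsk, and the autophagy genes from -0.56 for Atg5 to 0.49 for Sqstm1.

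The cathepsins, the main lysosomal proteases, held the 2 largest rises. Of 7 cysteine cathepsins, 5 rose and 1 fell. Ctsk, a collagen-degrading cathepsin best known from osteoclasts, stood at 0.84, 0.13 and 0.31 in the 3 controls and at 2.69, 2.77 and 2.05 in the 3 icKO arrays. All icKO arrays lay above all controls, a 4.22-fold rise (2.08 ± 0.26, SE; adjusted p = 0.0017). Ctsz, a carboxypeptidase, stood at 3.16, 2.69 and 2.93 in controls and at 3.95, 4.30 and 3.93 in icKO, again with no overlap, and rose 2.19-fold (1.13 ± 0.16; adjusted p = 0.0029).

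Ctsl and Ctsb, broad endopeptidases made in most cells, rose by 0.82 ± 0.11 and 0.60 ± 0.13 (SE; adjusted p = 0.0021 and 0.012). Ctsl read 5.65, 5.47 and 5.52 in controls against 6.50, 6.25 and 6.33 in icKO. Ctsb read 5.92, 5.69 and 5.98 against 6.28, 6.57 and 6.54. In both genes every icKO array was above every control. Ctsh, an aminopeptidase, rose by 0.50 ± 0.11 (adjusted p = 0.012), from 4.52, 4.31 and 4.24 to 4.89, 4.88 and 4.80.

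Ctsf and Ctsc went otherwise. Ctsf, a cysteine cathepsin, was lower in icKO, at 2.04, 1.83 and 1.74 against 2.20, 2.36 and 2.18 (-0.38 ± 0.12; adjusted p = 0.039). That call was lost with median, quantile or spike-in scaling, the last turning the sign (0.064, adjusted p = 0.81), and without any one of control replicates 1, 2 and 3 or icKO replicates 2 and 3. Ctsc, which activates serine proteases of immune cells, read 1.36, 0.80 and 0.89 in controls and 0.65, 1.50 and 0.97 in icKO, with the groups overlapping (0.02 ± 0.25; adjusted p = 0.95).

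The cathepsins of other catalytic types differed from each other in outcome. Ctsa, a serine carboxypeptidase that also protects the enzymes of Neu1 and Glb1, rose by 0.54 ± 0.10 (adjusted p = 0.0071), from 5.61, 5.52 and 5.62 to 5.99, 6.17 and 6.22. Its second, dimmer probe gave 0.97. Ctsd, the aspartic cathepsin, read 7.57, 7.45 and 7.65 in controls and 7.57, 7.66 and 7.76 in icKO. Its groups overlapped, and 0.11 ± 0.10 did not pass (adjusted p = 0.41), though it was called higher under quantile normalization (0.44, adjusted p = 0.017) and when arrays were scaled to spike-in probes (0.55).

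Of 5 glycosidases, which remove sugars from glycolipids, glycoproteins and glycosaminoglycans, 4 rose. Naglu, which degrades heparan sulfate, had the largest rise, 0.84 ± 0.11 (SE; adjusted p = 0.0022), from 0.71, 0.53 and 0.62 to 1.60, 1.31 and 1.46. Gusb, beta-glucuronidase, rose by 0.57 ± 0.11 (adjusted p = 0.0084), from 1.73, 1.60 and 1.62 to 2.12, 2.40 and 2.15. Neu1, the lysosomal sialidase, went from 2.94, 2.97 and 3.01 to 3.71, 3.35 and 3.38 and rose by 0.51 ± 0.12 (adjusted p = 0.017), a call lost without control replicate 1. No icKO array of these 3 genes was as low as any control.

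Hexa, the alpha subunit of beta-hexosaminidase, rose by 0.40 ± 0.12 (adjusted p = 0.034), a call lost without control replicate 2 or 3 or icKO replicate 2 or 3. Glb1, beta-galactosidase, stood at 1.18, 1.05 and 1.14 in controls and 1.18, 1.39 and 1.19 in icKO. Its groups barely parted, and the difference of 0.13 ± 0.10 did not pass (adjusted p = 0.34). Lipa, the lysosomal acid lipase, which frees cholesterol and fatty acids from lipoprotein lipids, rose by 0.57 ± 0.12 (adjusted p = 0.0097), from 1.24, 1.13 and 1.31 to 1.96, 1.66 and 1.76.

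**Figure D2:**
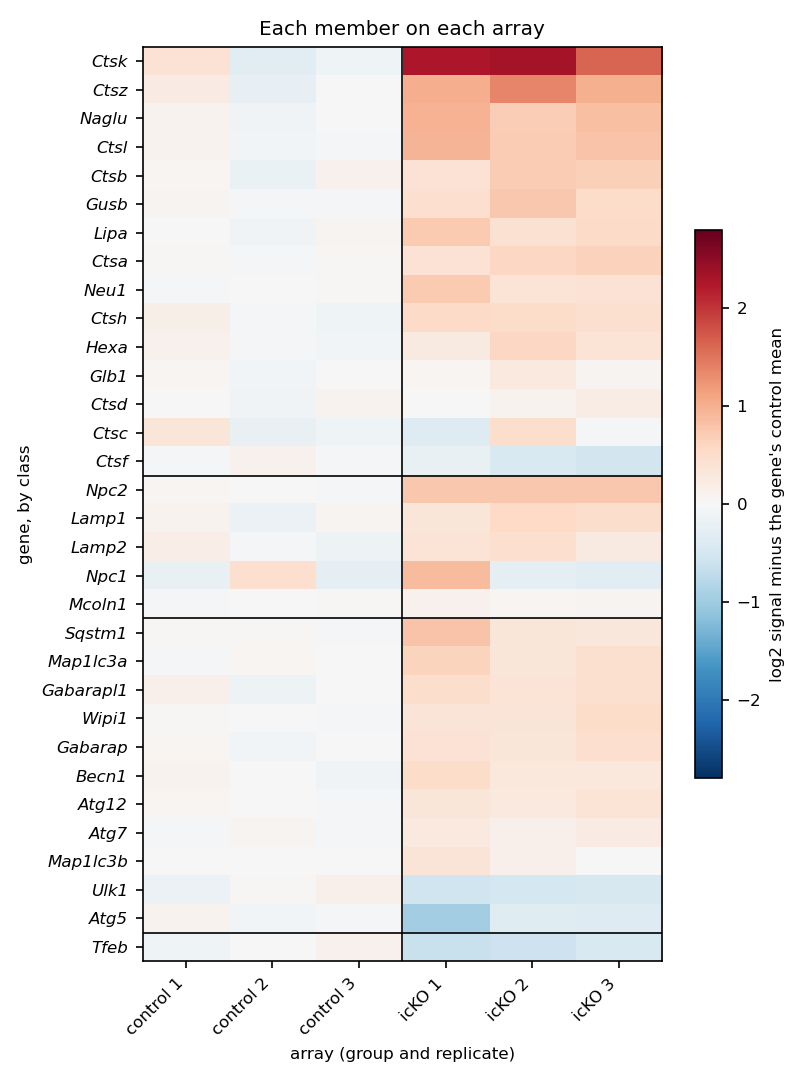
Each gene on each of the 6 arrays, coloured by its log2 signal minus that gene's mean over the 3 controls, with lines between the classes and between the groups. Ctsk and Ctsz are darkest on the icKO arrays, and Npc1 is raised on control replicate 2 and icKO replicate 1 only.

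The lysosomal membrane and lipid transfer genes gave 3 rises among 5 and no fall, where an unadjusted p under 0.05 (limma) also gave 0 lower. Without control replicate 2, icKO replicate 2 or icKO replicate 3, 1 of the 5 rose, beside 11.9%, 13.5% and 12.5% of all features. Npc2, the soluble protein that hands cholesterol to Npc1, rose by 0.75 ± 0.09 (SE; adjusted p = 0.0013), from 2.78, 2.74 and 2.67 to 3.48, 3.48 and 3.48. Its SD over the icKO arrays was 0.0032, the smallest of any member. Lamp1, the main glycoprotein of the lysosomal membrane, rose by 0.46 ± 0.12 (adjusted p = 0.019), from 7.42, 7.16 and 7.40 to 7.67, 7.87 and 7.81. That call was lost without control replicate 2 and without icKO replicate 2 or 3.

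Lamp2, whose loss causes the cardiomyopathy Danon disease, rose by 0.37 ± 0.12 with an adjusted p of 0.0497. It stood at 4.43, 4.20 and 4.11 in controls and 4.63, 4.72 and 4.50 in icKO, so the groups parted narrowly, and its second probe gave 0.45. The call was lost without control replicate 2 or 3 and without any of the icKO arrays. Npc1, the cholesterol transporter, read -0.72, -0.04 and -0.78 in controls and 0.36, -0.77 and -0.81 in icKO. The high arrays were 1 of each group, and 0.11 ± 0.37 did not pass (adjusted p = 0.83). Mcoln1, a calcium channel of the lysosome, differed by 0.08 ± 0.08 (adjusted p = 0.45).

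The 11 autophagy genes had a mean difference of 0.20. The step that starts an autophagosome gave both directions. Ulk1, the kinase that begins autophagy, fell by 0.50 ± 0.11 (SE; adjusted p = 0.013), from 5.19, 5.38 and 5.50 to 4.80, 4.87 and 4.90, with no overlap; it did not pass when the median (-0.34) or spike-in probes (-0.056) set the scale. Becn1, part of the lipid kinase complex that nucleates the membrane, was higher by 0.37 ± 0.11 (adjusted p = 0.035), lying between 1.09 and 1.33 on the icKO arrays and between 0.71 and 0.90 on the controls, a call lost when any 1 array was left out. Wipi1, which binds the lipid that complex makes, rose by 0.41 ± 0.09 (adjusted p = 0.013), from 3.16, 3.16 and 3.09 to 3.49, 3.51 and 3.66. A dimmer Wipi1 probe differed by -0.16, and averaging both probes left 0.13, which did not pass (adjusted p = 0.55). The Wipi1 call was also lost without control replicate 3.

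The conjugation enzymes, which attach LC3 proteins to the growing membrane, were divided. Atg12, a ubiquitin-like protein, rose by 0.34 ± 0.09 (adjusted p = 0.023), from 2.84, 2.81 and 2.74 to 3.14, 3.07 and 3.19, a call lost without control replicate 2 or 3 or icKO replicate 3. Atg5, to which Atg12 is joined, read 2.30, 2.13 and 2.18 in controls and 1.23, 1.86 and 1.85 in icKO. All its icKO arrays were below the controls, yet -0.56 ± 0.19 did not pass (adjusted p = 0.053), and without icKO replicate 1 it was -0.35 and passed (adjusted p = 0.045). Atg7, the activating enzyme for both conjugation systems, differed by 0.22 ± 0.09 (adjusted p = 0.11), and was called higher with median and spike-in scaling.

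Of 4 LC3 and GABARAP genes, whose proteins coat the autophagosome membrane, 3 rose. Map1lc3a rose by 0.47 ± 0.11 (SE; adjusted p = 0.014), from 6.06, 6.14 and 6.08 to 6.72, 6.43 and 6.55. Gabarap went from 5.94, 5.80 and 5.89 to 6.29, 6.22 and 6.35, and rose by 0.41 ± 0.09 (adjusted p = 0.014). Gabarapl1 stood at 6.75, 6.47 and 6.61 in controls and at 7.10, 7.00 and 7.05 in icKO, a rise of 0.44 ± 0.11 (adjusted p = 0.017). In each of these genes the icKO arrays lay above all controls. The Gabarap call was lost without icKO replicate 3, and the Gabarapl1 call without that array, control replicate 2 or control replicate 3.

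Map1lc3b, the LC3 form most used as an autophagy marker, read 5.55, 5.54 and 5.57 in controls and 5.91, 5.70 and 5.57 in icKO. One icKO array fell within the controls, and 0.17 ± 0.11 did not pass (adjusted p = 0.26). Sqstm1, which encodes the cargo receptor p62, rose by 0.49 ± 0.15 (adjusted p = 0.041), from 3.88, 3.88 and 3.81 to 4.66, 4.19 and 4.17. Its highest array was icKO replicate 1, and the call was lost without any one control or without icKO replicate 2 or 3.

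Hydrolases and autophagy genes were then set side by side. Over the 15 hydrolases the mean difference was 0.56, with 11 higher and 1 lower. Over the 11 autophagy genes it was 0.20, with 7 higher and 1 lower, but the number higher was 3 without control replicate 2, and 2 without either control replicate 3 or icKO replicate 3. Of all features, 11.9%, 12.5% and 12.5% were higher in those fits. On single arrays, the hydrolase mean relative to controls was 0.55, 0.63 and 0.50 in icKO replicates 1 to 3, and the autophagy mean 0.24, 0.16 and 0.21. Their difference was 0.31, 0.47 and 0.29 on the icKO arrays and 0.09, -0.09 and 0.00 on the controls, so the groups did not overlap; no p is given for these means, since the genes were chosen with earlier results known. The mean gap of 0.36 rested partly on Ctsk and Ctsz, left out here after their values were seen, and was 0.20 without them. The medians, 0.54 and 0.37, lay 0.18 apart.

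**Figure D3:**
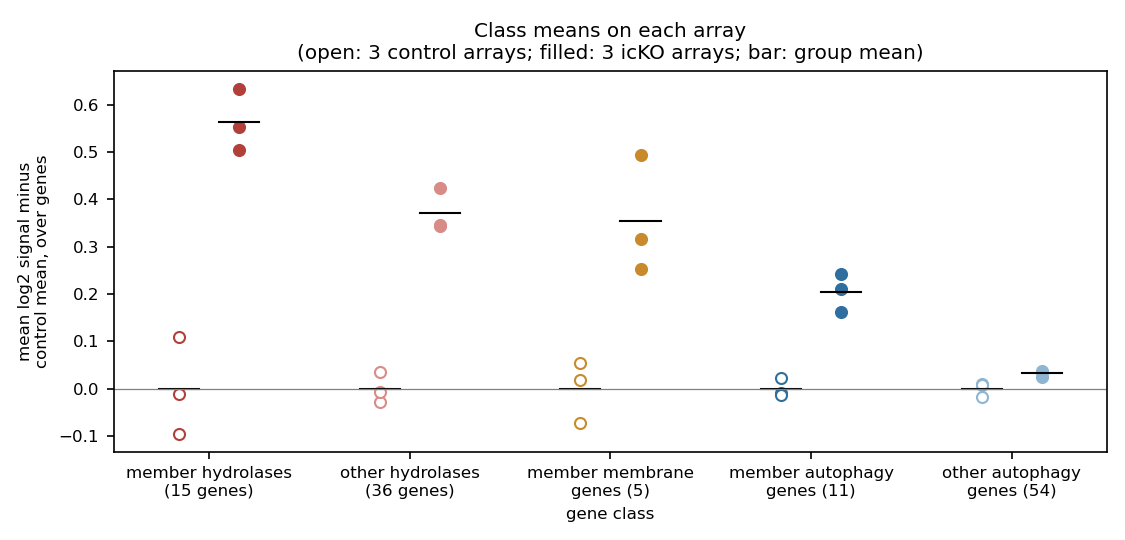
Mean log2 signal minus the control mean over the genes of each class, for the 3 control arrays (open) and the 3 icKO arrays (filled), with a bar at each group's mean. Member hydrolases average 0.56 and member autophagy genes 0.20 on the icKO arrays, and the wider lists 0.37 and 0.03.

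The same contrast was drawn over pathway genes outside the 32. Of 36 other hydrolases and their activators, 17 rose and 3 fell, with a median of 0.33, or 24 and 0 with spike-in scaling. Of 54 other autophagy genes, 9 rose and 11 fell, with a median of -0.03, or 23 and 0 with spike-in scaling. The main shares were 47.2% higher and 8.33% lower for these hydrolases, and 16.7% and 20.4% for these autophagy genes. Over all features 16.0% were higher and 28.7% lower, or 32.2% and 7.54% with spike-in scaling. The share of other autophagy genes that rose was thus near that of all features. The other hydrolases lay above the other autophagy genes by 0.31, 0.39 and 0.32 on the icKO arrays and by 0.02, -0.01 and -0.01 on the controls. A gap of 0.34 on average thus appeared in these genes too. They were read on the same arrays, and their lists were also chosen with earlier results known. Their gap is therefore not independent of that of the members.

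Among the other hydrolases, Fuca1, a fucosidase, rose by 0.96 ± 0.10 (SE; adjusted p = 0.00092). Psap, the precursor of the saposin activators, fell by 0.88 ± 0.11 and Sgsh, a heparan sulfatase, by 0.55 ± 0.11, but a second Sgsh probe gave 0.25, and both calls were lost when arrays were scaled to spike-in probes. All 3 cystatin and stefin genes, which encode inhibitors of cysteine cathepsins, rose with every scaling, among them Cstb by 0.77 ± 0.11 and Cst3 by 0.60 ± 0.12. Transcripts of these inhibitors and of 5 of the 7 member cysteine cathepsins were thus higher in icKO, while Ctsf was lower and Ctsc did not pass.

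Of 16 subunits of the V-ATPase, the proton pump that acidifies lysosomes, 5 rose and 0 fell (limma; 1 was lower at an unadjusted p below 0.05), and 8, 9 and 11 rose with median, quantile and spike-in scaling. Atp6v1h rose by 1.26 ± 0.13 (adjusted p = 0.00097) and Atp6v1c1 by 0.68 ± 0.09. Of 18 other lysosomal membrane genes, 1 rose, Cd63, a tetraspanin, by 0.89 ± 0.10, and 4 fell, including Laptm4b by 1.51 ± 0.12 and Abca2 by 0.61 ± 0.11. In this list 3 rose and 2 fell with median scaling, 3 and 3 with quantile, and 7 and 1 with spike-in scaling. The main shares were 5.56% higher and 22.2% lower here and 31.2% and 0% for the V-ATPase. Over all features they were 16.0% and 28.7%.

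Among 16 genes for sorting of enzymes to the lysosome, 3 rose and 1 fell (18.8% and 6.25%, beside 16.0% and 28.7% of all features). Igf2r, the large mannose 6-phosphate receptor, rose by 0.83 ± 0.10 and Gnptg, which helps make that sugar tag, by 0.59 ± 0.08, while Sort1, an alternative sorting receptor, fell by 0.87 ± 0.12 but was not called under the spike-in scale. Of 20 other initiation and nucleation genes, 5 rose and 3 fell (25% and 15%), or 5 and 1 with median and 9 and 0 with spike-in scaling. Atg13, the partner of Ulk1, had the largest rise (1.90 ± 0.11, SE; adjusted p = 0.00020), and Uvrag, a partner of Becn1, rose by 0.96 ± 0.12, while Atg2a and Wdr45b fell by 0.50 ± 0.09 and 0.41 ± 0.09, calls lost with spike-in scaling, where the sign of Wdr45b turned (0.028). Ulk1 and Atg13, whose proteins act in 1 complex, thus moved in opposite directions when the 75th percentile set the scale. The fall of Ulk1 was not called on the median scale (-0.34) or the spike-in scale (-0.056), whereas Atg13 rose on each scale used.

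Of 8 other conjugation and LC3 processing genes, 3 fell and 0 rose (limma; 0 higher at an unadjusted p below 0.05), among them Atg10 (-0.81 ± 0.13) and Atg4d (-0.82 ± 0.16), but with spike-in scaling none fell and 3 rose. Of 11 other receptors, 3 rose and 3 fell, or 4 and 0 on the spike-in scale. Bnip3 and Bnip3l rose by 1.82 ± 0.14 and 0.52 ± 0.15, while Calcoco1 and Phb2 fell by 0.86 ± 0.09 and 0.73 ± 0.10. Of 15 genes for fusion of autophagosomes with lysosomes, 1 rose, Vps11 by 0.57 ± 0.13, and 2 fell, Rilp by 0.58 ± 0.09 and Snap29 by 0.62 ± 0.10. In this fusion list median scaling gave 4 rises and 2 falls, and spike-in scaling 7 rises and 0 falls. The falls of Calcoco1, Phb2, Rilp and Snap29 were not called with the latter. The main shares higher and lower were 0% and 37.5% for conjugation, 27.3% and 27.3% for receptors, and 6.67% and 13.3% for fusion. Over all features they were 16.0% and 28.7%.

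**Figure D4:**
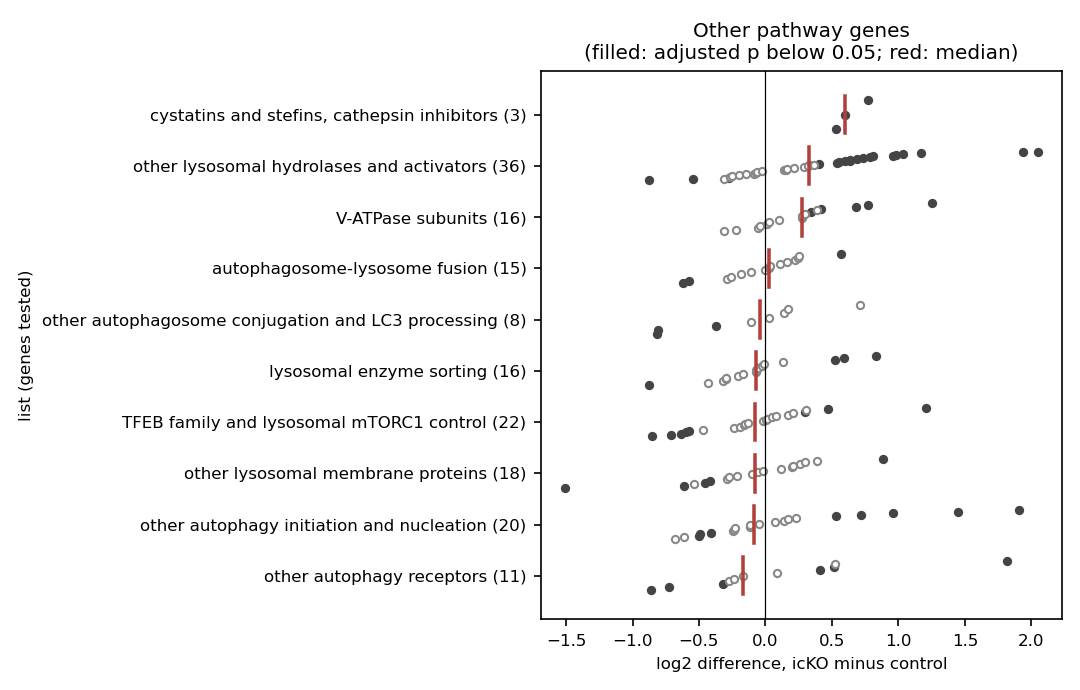
Log2 difference (icKO minus control) of each pathway gene outside the 32, by list with the number of genes tested, filled where the adjusted p is below 0.05 and with a red bar at the list's median. The cystatin and hydrolase lists have the highest medians, 0.60 and 0.33, and the list of other autophagy receptors the lowest, -0.17.

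Tfeb encodes a transcription factor that binds E-boxes in promoters of lysosomal and autophagy genes and is held in the cytoplasm when mTORC1 is active. It stood at 1.04, 1.17 and 1.30 in controls and at 0.55, 0.58 and 0.73 in icKO, all below the controls. It fell by 0.55 ± 0.11 (SE; adjusted p = 0.0090), but did not pass when the median (-0.39, adjusted p = 0.059) or spike-in probes (-0.11, adjusted p = 0.66) set the scale. Of 22 genes of the Tfeb family and of mTORC1 control at the lysosome, 3 rose and 5 fell, or 10 and 0 with spike-in scaling. The main shares, 13.6% and 22.7%, stood beside 16.0% and 28.7% of all features. Fnip2 and Rragc, which act on mTORC1 at the lysosome, rose by 1.20 ± 0.16 and 0.47 ± 0.12, and Mitf, a relative of Tfeb, and Lamtor4 fell by 0.86 ± 0.13 and 0.71 ± 0.10, calls lost with spike-in scaling.

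Because Tfeb and its relatives bind an E-box flanked by GT, GTCACGTG, the promoter windows of the members were searched for it. RefSeq windows of build GRCm38.p6, running from 250 bases before to 50 after the start, were matched for 26 of the 32 genes; Atg12, Becn1, Ctsb, Ctsh, Map1lc3a and Npc1 had none. On either strand, GTCACGTG was found in 7 of the 26 genes (26.9%) and in 2.25% of all 32851 windows, or 2.55% of genes. The shorter E-box CACGTG, which lies inside it, was found in 10 of 26 (38.5%) and in 7.15% of all windows, or 8.09% of genes. The 7 genes with GTCACGTG were Atg7, Ctsa, Ctsd, Glb1, Lamp1, Mcoln1 and Naglu.

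Of these 7 genes, Ctsa, Lamp1 and Naglu rose and the other 4 did not pass, whereas 13 members that rose had a window without it. The TEAD core motif GGAATG was found on either strand in 4 of 26 genes (15.4%), in 14.7% of all windows and in 16.6% of all genes with a window. A match describes letters in a window and not binding. The stretches printed here are from members that rose (Naglu, Ctsa, Lamp1) and from members with 2 matches that did not pass (Ctsd, Mcoln1), written 5′ to 3′ on the gene's strand with each GTCACGTG, or its reverse complement CACGTGAC, in capitals.
Naglu, chr11:101069973-101070072, + strand: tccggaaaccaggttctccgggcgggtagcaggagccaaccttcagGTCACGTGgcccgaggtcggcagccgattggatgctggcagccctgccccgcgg
Ctsa, chr2:164833713-164833772, + strand: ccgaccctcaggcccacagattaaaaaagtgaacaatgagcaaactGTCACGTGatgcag
Lamp1, chr8:13159087-13159160, + strand: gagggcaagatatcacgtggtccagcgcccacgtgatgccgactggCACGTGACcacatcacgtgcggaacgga
Ctsd, chr7:142387872-142388077, - strand: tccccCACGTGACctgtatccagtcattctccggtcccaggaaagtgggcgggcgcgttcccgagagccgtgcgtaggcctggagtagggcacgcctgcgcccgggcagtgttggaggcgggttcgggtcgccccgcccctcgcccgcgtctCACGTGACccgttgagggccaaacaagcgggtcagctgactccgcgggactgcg
Mcoln1, chr8:3500400-3500518, + strand: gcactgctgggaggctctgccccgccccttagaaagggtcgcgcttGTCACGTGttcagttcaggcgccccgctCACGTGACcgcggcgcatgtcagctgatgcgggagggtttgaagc
The match in Naglu starts 75 bases before the transcription start and that in Ctsa 14 bases before it. Ctsa has a second match that begins past the start. The Lamp1 window holds CACGTG 4 times, of which 1 is part of GTCACGTG.

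Variation among arrays of a group was small beside most of these differences. The median SD over the members was 0.09 in controls and 0.13 in icKO, and 22 of 32 members had the larger SD in icKO. The genes with an SE above 0.2 were Ctsc, Ctsk and Npc1. Among controls, replicate 1 was the highest array for 18 members and replicate 2 the lowest for 16. Among icKO arrays, replicate 1 was the highest for 14 members, Sqstm1 and Neu1 among them, and the lowest for 13, Atg5 among them. Only 1 slide column, the middle one, held both groups, with control replicate 3 and icKO replicate 1; there 30 of 32 members had the sign of their overall difference, and the hydrolases lay 0.31 above the autophagy genes, with no test possible on that pair. Both arrays also enter the overall difference, so this agreement is partly built in and cannot separate slide position from group.

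Levels of cell markers were summed in units of the array's 75th percentile signal; macrophage and fibroblast sums were higher in icKO, cardiomyocyte sums lower, and endothelial sums overlapped. The 17 macrophage markers summed to 89.7 to 119 in controls and 170 to 210 in icKO, and Cd68 was not matched to a probe. The 12 fibroblast markers summed to 284 to 461 and 764 to 960. The 12 cardiomyocyte markers summed to 10439 to 12621 and 6778 to 7510, and the 8 endothelial markers to 158 to 178 and 152 to 174. The endothelial sum is weighted by its brightest marker, Egfl7, with log2 means of 7.07 in controls and 7.11 in icKO. Marker by marker, 4 of the 8 endothelial genes were called lower and 0 higher, with a median difference of -0.42. With spike-in scaling 0 were lower and 1 higher. No marker matched to a probe was below background on every array. Their part in the rise of the hydrolases, and in the gap to the autophagy genes, was not tested.

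The scaling between arrays changed the size of the members' differences. The 75th percentile, median and spike-in scalings each subtract 1 constant per array, so the gap between the classes is the same under them by construction. Quantile normalization, which can change it, gave 0.35 against 0.36. The hydrolase mean was 0.56, 0.64, 0.72 and 1.0 with the 75th percentile, quantile, median and spike-in scalings, and the autophagy mean 0.20, 0.29, 0.36 and 0.65. The median over all features moved from -0.14 to -0.07, 0.02 and 0.30. With spike-in scaling 26 of 32 members were called higher and 0 lower (limma, also 0 at an unadjusted p below 0.05), among them Ctsd, Glb1, Mcoln1, Atg7 and Map1lc3b, beside 32.2% of all features higher.

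**Figure D5:**
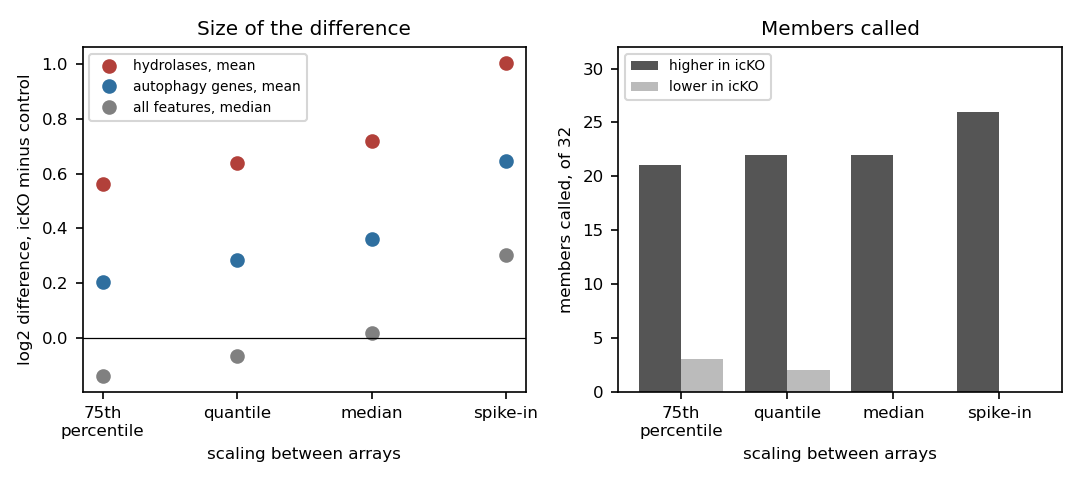
Left, the mean log2 difference of the 15 hydrolases and the 11 autophagy genes and the median over all features under 4 scalings between arrays; right, the number of the 32 genes called higher or lower at an adjusted p below 0.05. The hydrolase mean runs from 0.56 to 1.0 and the autophagy mean from 0.20 to 0.65; their order is fixed by construction among all scalings but quantile.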

How the data were processed

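Cy3-labelled total RNA of heart ventricle was read on Agilent arrays of 1 colour, 3 per group. The deposited scanner files give spot intensity on a linear scale, background-subtracted by Agilent Feature Extraction 11.0.1.1 (design 028005, mm9) per the file headers. Version 9.1 is named in the submitters' processing notes. The authors' deposited value table also holds linear intensity; no source used here states its scaling. Its columns correlated with each array's log2 scanner values at 0.9995 or more and had medians of 22.8 to 23.0. Their 75th percentiles (263.5 to 265.17) and sums (109769000 to 109772000) also nearly matched. It gave 22 members higher and 2 lower, as quantile normalization did, so these alternatives are hardly separate.

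For the main setting, the log2 processed signal was taken relative to the array's 75th percentile. Outlier spots (169 to 318 per array) were dropped and replicate spots averaged. The filter kept a probe where every array of either group had it well above background (26152 of 55681). Probes were named by RefSeq accession through a gene table of GRCm38.p6, and the brightest stood for its gene. Groups were compared with limma 3.58.1 in R 4.3.3 over 22278 features, with Benjamini-Hochberg adjustment and a threshold of 0.05; every adjusted p comes from that fit unless a setting is named. On simulated data with 200 changed features of 22163, the fit recovered 13.4% of 1.5-fold, 59.7% of 2-fold and 97% of 4-fold changes. Of its 117 calls, 4 were false. Far fewer features were changed there than were called here, so these recoveries do not carry over directly. Alternatives changed the scaling, background correction, filter, choice of probe, fit, blocks and arrays included. Named genes are all members, Tead1 and, from each other list, at most 2 risers and 2 fallers of smallest p; 1 gene that this rule takes is not reported here. The members and lists were chosen with earlier results of these data known. Normexp used median spot signals in place of the planned mean signals.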

Additional observations from a re-analysis of the deposited data

How the results depend on the processing

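Over 19 alternatives with a test, 510 of the values of single members kept their direction and side of the threshold, 76 calls were lost, 13 gained and 9 changed sign. Of 24 called members, 7 (Ctsa, Ctsk, Ctsl, Ctsz, Gusb, Naglu and Npc2) were called in every one. The counts were 11 hydrolases higher and 1 lower, 3 membrane genes higher and 0 lower, and 7 autophagy genes higher and 1 lower. With no filter on dim probes, where 49244 features were tested, they were 6, 0, 1, 0, 0 and 0, though an unadjusted p below 0.05 (limma) still gave 11, 1, 3, 0, 7 and 2. Calls over all features fell there too, to 4.32% higher and 8.11% lower, from 16.0% and 28.7% in the main setting. The 1 lower hydrolase, Ctsf, was 0 with median, quantile and spike-in scaling, normexp, the authors' deposited value table and the replicate block, and its sign turned with spike-in scaling (0.064). Lower autophagy genes numbered 0 with median and spike-in scaling and 2 when probes had to be above background on all arrays or with trend and robust eBayes. Higher autophagy genes numbered 3 with the replicate block and 4 with slide row as a block, and higher membrane genes 1 with the replicate block. Deviations of same-numbered arrays correlated at -0.13 to 0.00, and those of the other pairs at -0.04 to 0.09. With 3 arrays per group these values cannot tell whether same-numbered arrays were paired. The replicate block took the members called higher from 21 to 14, and the share of all features called higher from 16.0% to 12.6%. With slide row as a block that share was 15.1%. Leaving out each array gave 10 to 11 higher and 0 to 1 lower hydrolases, 1 to 3 membrane genes higher, and 2 to 6 higher and 1 to 2 lower autophagy genes; the hydrolase minus autophagy gap was 0.30 to 0.40 against 0.36, and 0.31 to 0.41 over the other alternatives that can change it (quantile, normexp, the authors' table, outlier spots kept, mean of probes, array weights, slide row, 1 slide column); the remaining settings cannot move it by construction. Higher autophagy genes were 3 without control replicate 2, 2 without control replicate 3 and 2 without icKO replicate 3. Over all features, the fits with 1 array left out called 11.9% to 14.3% higher and 21.2% to 25.7% lower. Genes that did not pass also changed sign: Npc1 gave -0.0073 with normexp, -0.047 with array weights and -0.10 with slide row as a block. With 1 array left out, Npc1 ranged from -0.28 to 0.35, below 0 without control replicate 3 or icKO replicate 1, and Ctsc from -0.21 to 0.22, below 0 when control 2, control 3 or icKO 2 was dropped. The cause of these losses was not tested. Settings for genes outside the 32 and for all members together were added after the data were seen.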
